A study of Mus musculus with 4 samples.

Results

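The S100 family of calcium-binding proteins was followed in mouse liver after an overdose of acetaminophen (APAP). Its members were taken by gene symbol, and the 9 symbols S100a1, S100a4, S100a6, S100a8, S100a9, S100a10, S100a11, S100a13 and S100a16 each matched 1 of the 27027 gene entries of the count table. In order of their fold at 24 h, S100a8, S100a9, S100a4, S100a11 and S100a6 exceeded the control library of the same time by 2-fold or more at both time points. S100a10, the most abundant member, was 1.61-fold higher at 24 h and at 0.861 of control at 48 h (1.03 where libraries were scaled by their totals). S100a1 and S100a13 were lower in APAP at both times, by less than 2-fold (S100a13 at 48 h only against the control of its own time, and both genes with intervals that held 1 where libraries were scaled by their totals), and the intervals of S100a16 held 1 at both times with size factors.

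Male C57BL/6 mice (C57BL/6J in the study's methods), 9 to 12 weeks old and fasted overnight, received either NaCl solution or APAP at 300 mg/kg by intraperitoneal injection. Livers were taken at 24 h or 48 h. RNA of the mice of a group was mixed in equal shares before sequencing, so the 4 groups (control at 24 h and 48 h, from 6 mice each, and APAP at 24 h and 48 h, from 7 mice each) were 1 library each. Reads came from the 3′ ends of polyadenylated transcripts by massive analysis of cDNA ends (MACE). The libraries held between 4859661 and 5698778 reads counted on genes. Since no group had a second library, no p-value could be given, the spread between mice is not measured in these libraries, and each interval below is a 95% interval of counting error only.

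S100 proteins are small EF-hand proteins that mostly work as dimers: calcium binding opens a groove with which they hold a partner protein. Within the cell they act on the cytoskeleton, on membrane repair through annexins and on calcium pumps. Some of them, S100a8 and S100a9 foremost, are also released from damaged or activated cells as danger signals and are read by TLR4 and by the receptor RAGE. In liver, S100a8 and S100a9 are best known from neutrophils and monocytes, and S100a4, S100a6 and S100a11 from macrophages, bile duct cells and mesenchymal cells. In whole tissue, more cells of a type and more RNA per cell cannot be told apart.

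All 9 genes lie on chromosome 3 (GENCODE genes on GRCm38, the build named mm10 in the processing notes). A run of 7 of them fills a block of 185 kb, chr3:90511034-90695721, in the order S100a1, S100a13, S100a16, S100a4, S100a6, S100a8 and S100a9. S100a11 and S100a10 form a second block of 44.2 kb, chr3:93520488-93564643, beyond a gap of 2.82 Mb. Among the 9, the members that were higher in APAP stood side by side: the last 4 genes of the first block and the first gene of the second were past 2-fold at both times, and S100a1, S100a13 and S100a16 at the other end of the first block were not. S100a1 (minus strand) and S100a13 (plus strand) start back to back, with 42 bases between the annotated genes.

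**Figure D1:**
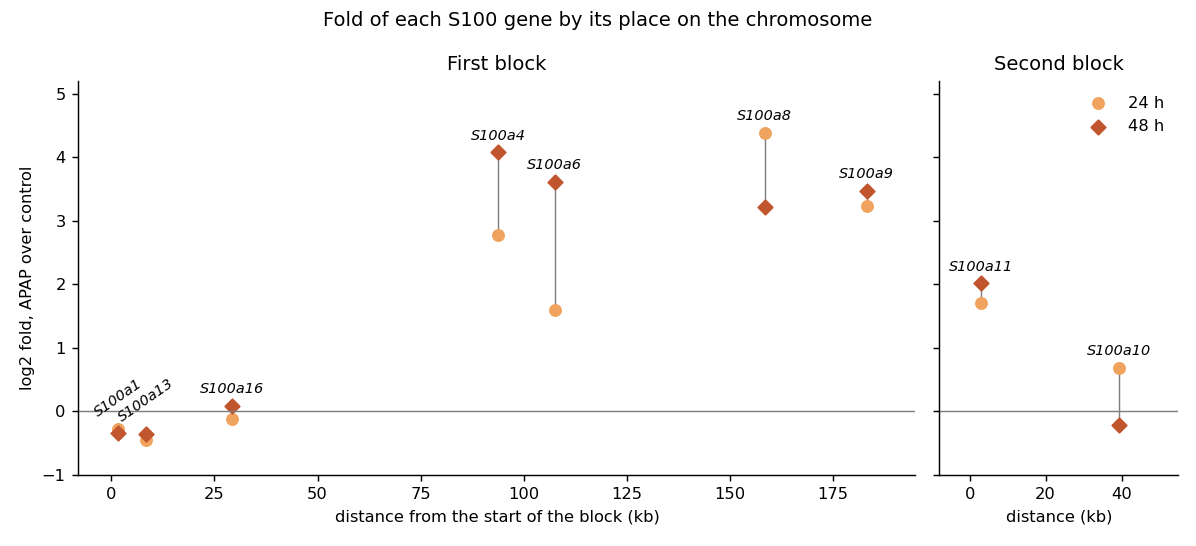
Log2 fold of each S100 gene, APAP over control of the same time (y axis, circles 24 h, diamonds 48 h), against the distance of the gene's centre from the start of its block in kb (x axis). S100a4, S100a6, S100a8 and S100a9 stand above a log2 fold of 1 side by side, S100a1, S100a13 and S100a16 lie near 0, and the 2 genes of the second block differ from each other; the control of S100a9 at 48 h was set to 3 reads.

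RefSeq promoter windows (GRCm38.p6, 300 bases, of which 250 lie before the annotated start) were found for 8 of the 9 members; S100a10 had no entry. The windows were searched on both strands for TATAAA (the TATA box), TGANTCA (the AP-1 motif) and TTGCNNAA (the C/EBP motif), and no match overlapped another. The sequences of the 5 raised members are shown because they differ in these letters. Each runs 5′ to 3′ in the direction of the gene over the 120 bases before the annotated start, except that S100a9 also holds the first 6 bases after it; capitals mark TATAAA or TGANTCA. They cover chr3:90603650-90603769 for S100a4, chr3:90668951-90669070 for S100a8, chr3:90612774-90612893 for S100a6 and chr3:93520376-93520495 for S100a11, all on the plus strand, and chr3:90695716-90695841 on the minus strand for S100a9.
S100a8: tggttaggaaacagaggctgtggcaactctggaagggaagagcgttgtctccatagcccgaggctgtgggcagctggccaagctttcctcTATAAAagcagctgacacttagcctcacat
S100a9: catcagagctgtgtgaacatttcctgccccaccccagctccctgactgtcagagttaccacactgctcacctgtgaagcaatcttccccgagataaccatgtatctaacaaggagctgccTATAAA
S100a4: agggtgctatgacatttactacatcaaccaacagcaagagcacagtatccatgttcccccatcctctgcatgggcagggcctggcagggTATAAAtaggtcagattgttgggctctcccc
S100a11: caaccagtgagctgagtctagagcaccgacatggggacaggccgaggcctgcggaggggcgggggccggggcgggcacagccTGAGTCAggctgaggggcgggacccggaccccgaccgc
S100a6: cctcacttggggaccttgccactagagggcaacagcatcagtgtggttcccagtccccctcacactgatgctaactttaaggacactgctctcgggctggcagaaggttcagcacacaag
TATAAA in the direction of the gene was found in S100a8 (from -30 to -25 of the annotated start), in S100a4 (from -31 to -26) and in S100a9 (from 1 to 6, directly after the annotated start), and in no other member. These 3 members were past 5-fold at 24 h, and S100a6, which has no TATAAA in its window, had a fold of 12.2 at 48 h. Whether these letters bear on the folds was not tested. Of 32851 RefSeq promoter windows, 8.32% held TATAAA on that strand and 13.6% on either, and 2.14% held it in that direction between -45 and -16, where S100a4 and S100a8 have it. TGANTCA was found in S100a11, at -136 and at -38, and in 1 of the windows of S100a16, against 7.81% of all windows. TTGCNNAA was found only in S100a9 (TTGCTTAA from -236), against 10.8% of all windows. S100a6 held none of the 3 motifs in its window. These are matches of letters; binding was not measured.

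At 24 h, 5 of the 9 members passed 2-fold in APAP, where 6.17% of the 10892 genes with at least 20 reads in either library did. At 48 h, 5 of 9 passed it too, where 5.64% of 10831 genes did. A fold here is the ratio of reads divided by size factors (median of ratios), with a count under 3 set to 3. They were the same 5 genes, while 1.96% of 10361 genes were 2-fold higher at both times. Past 5-fold were 3 of 9 members at 24 h (1.18% of all genes), namely S100a8, S100a9 and S100a4, and 4 of 9 at 48 h (0.646%), with S100a6 added. By the lower bound of the interval, 1 member (S100a8) was past 5-fold at 24 h and 3 were at 48 h, and with a floor of 10 reads 2 and 3 were. At 24 h and 48 h, 0 of the 9 were lower in APAP by 2-fold or more, as were 4.93% and 5.31% of all genes. The median log2 fold of the members was 1.60 at 24 h (S100a6, interval 1.01 to 2.22) and 2.02 at 48 h (S100a11, interval 1.68 to 2.36), beside medians of 0.03 and -0.01 over all genes tested. Around the 2-fold line the members left a wide step. At 24 h the lowest fold past it was 3.02 (S100a6) and the next one below was 1.61 (S100a10). At 48 h these neighbours were 4.05 (S100a11) and 1.06 (S100a16).

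**Figure D2:**
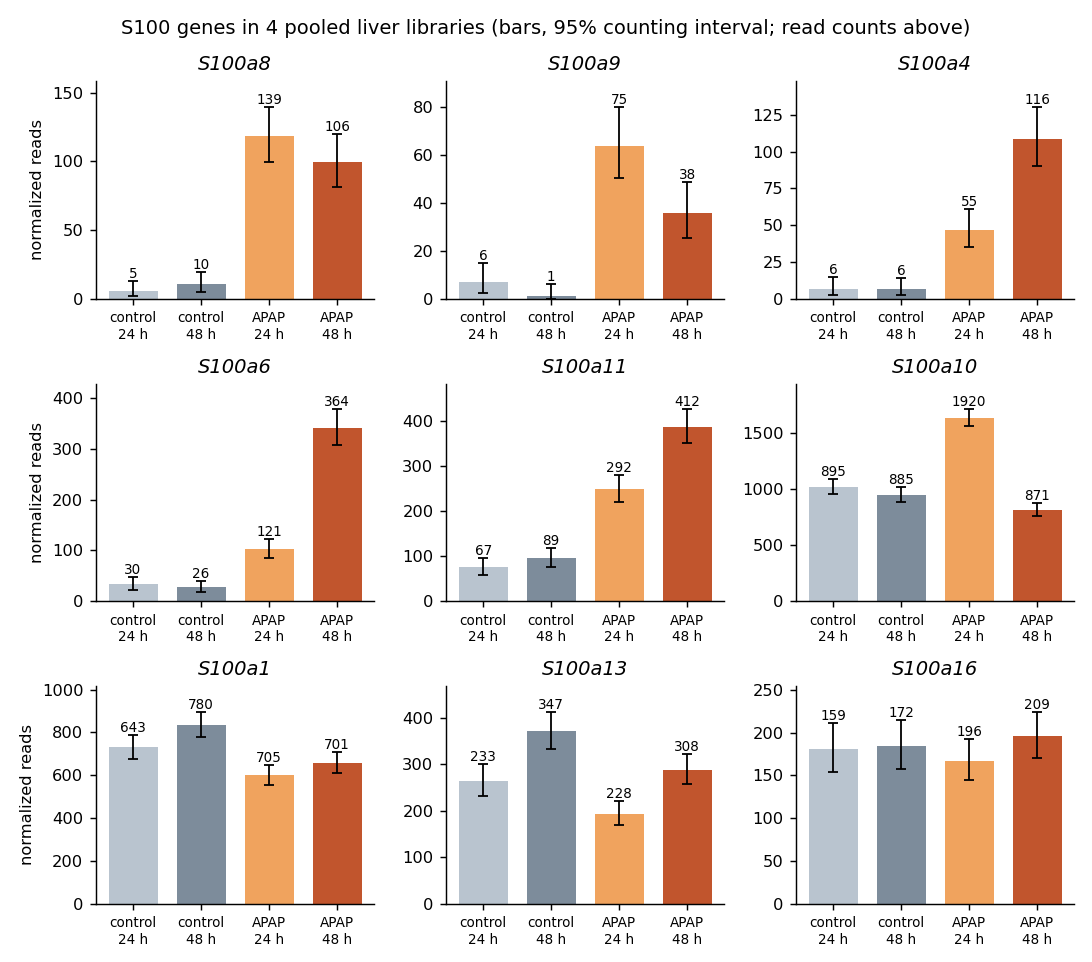
Normalized reads (reads divided by the size factor of the library) of each S100 gene in the 4 pooled libraries, 1 panel per gene with its own y axis from 0; error bars are 95% Poisson intervals of the read count printed above each bar. The APAP bars stand above both control bars in S100a8, S100a9, S100a4, S100a6 and S100a11, whereas S100a10 is high at 24 h only and the APAP bars of S100a1, S100a13 and S100a16 do not rise above both control bars by more than their error bars.

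S100a8 and S100a9 encode the subunits of calprotectin, a secreted complex that binds calcium and zinc and is a ligand of TLR4. S100a8 had 5 reads in the control library at 24 h, 10 in the control library at 48 h, 139 in APAP at 24 h and 106 in APAP at 48 h. Both APAP counts were far above both control counts. The fold was 20.8 at 24 h (interval 8.71 to 65.2), which put S100a8 at rank 5 of 10892 genes, and 9.27 at 48 h (4.85 to 19.9, rank 22 of 10831). In APAP the level at 48 h was 0.839 of that at 24 h, with an interval of 0.646 to 1.09 that held 1.

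S100a9 was counted 6 times in the control library at 24 h, once (1 read) in the control library at 48 h, 75 times in APAP at 24 h and 38 times in APAP at 48 h. Here too the APAP counts lay above both controls. The fold was 9.37 at 24 h (4.11 to 26.3). At 48 h the ratio to a single control read was 33.2, with an interval of 5.61 to 1347, and with that control set to 3 reads it was 11.1. Against the 6 reads of the other control library it was 5.22. In APAP the level of S100a9 at 48 h was 0.558 of that at 24 h (0.367 to 0.835). S100a9 was also the 1 member of 9 past 2-fold between the control pools, where 3.36% of 10157 genes were, but its interval for that comparison (0.00342 to 1.30) held 1, and it had fewer than 20 reads in both controls.

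The balance of the calprotectin genes was read within each library. Reads of S100a8 outnumbered those of S100a9 by 1.85 in APAP at 24 h (1.39 to 2.49) and by 2.79 in APAP at 48 h (1.91 to 4.15). In the control libraries both genes together had 11 reads each, at a ratio of 0.833 at 24 h (0.201 to 3.28) and, with 10 reads against 1, of 10 at 48 h (1.42 to 434). Summed, S100a8 and S100a9 were 14.6-fold higher at 24 h (7.98 to 29.6) and 11.4-fold higher at 48 h (6.21 to 23.4), and the interval of the ratio of these folds (0.785, 0.300 to 2.06) held 1.

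S100a4, also known as fibroblast-specific protein, binds non-muscle myosin and is found in motile cells, macrophages among them. It had 6 reads in each control library, 55 in APAP at 24 h and 116 in APAP at 48 h. The fold was 6.87 at 24 h (2.96 to 19.5, rank 60) and 16.9 at 48 h (7.54 to 47.0), rank 6 of all genes tested. Between the APAP libraries the level at 48 h was 2.32 times that at 24 h (1.67 to 3.26). With 6 control reads the ratio of the folds, 2.46, had an interval of 0.624 to 9.63 that held 1. The entry joins S100a4 with the overlapping gene Gm42674, whose transcript matches the last 300 bases of S100a4 over 268 bases at 97.8% identity, and reads of the joined entry cannot be assigned to either. A separate entry under the name Gm42674 held 0 reads in 3 libraries and 1 read in APAP at 24 h.

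S100a6 (calcyclin), a partner of annexins and of the ubiquitin ligase adaptor Cacybp, had the largest ratio between its folds at the time points. Its counts were 30 and 26 in the control libraries at 24 h and 48 h, 121 in APAP at 24 h and 364 in APAP at 48 h. The fold went from 3.02 (2.01 to 4.67, rank 289) to 12.2 (8.22 to 19.0, rank 13). The ratio of the folds was 4.05 with an interval of 2.21 to 7.42. S100a6 was the 1 member of 9 whose fold was higher at 48 h by this interval, as was the fold of 9.71% of 10361 genes.

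S100a11 (calgizzarin) binds annexins and takes part in resealing of the plasma membrane. It had 67 and 89 reads in the controls at 24 h and 48 h, 292 in APAP at 24 h and 412 in APAP at 48 h. The folds of 3.27 (2.50 to 4.32) and 4.05 (3.21 to 5.15) were close to each other, with a ratio of 1.24 (0.858 to 1.79). Its last 300 bases match the pseudogenes Gm12854 and Gm7665 over 160 bases at 98.1% and 97.5% identity; their own entries held at most 11 and 5 reads in any library. Whether reads were exchanged between these entries was not tested.

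S100a10 (p11) is unusual in the family because it needs no calcium: it forms a complex with annexin A2 at the plasma membrane, which binds plasminogen. It had 895 reads in the control library at 24 h, 885 in the control library at 48 h, 1920 in APAP at 24 h and 871 in APAP at 48 h. Only the APAP library at 24 h stood apart. The fold of 1.61 at 24 h (1.48 to 1.74) had turned to 0.861 at 48 h (0.783 to 0.946, and 1.03 with library totals), a ratio of folds of 0.535 (0.473 to 0.607). S100a10 was the 1 member whose fold was higher at 24 h by that interval, as was that of 12.3% of all genes. In APAP its level at 48 h was 0.499 of that at 24 h (0.460 to 0.541).

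S100a1 is the family member of heart muscle, where it acts on the calcium pump Atp2a2, and is also made in liver. Its reads numbered 643 and 780 in the controls at 24 h and 48 h and 705 and 701 in APAP. The folds were 0.821 (0.737 to 0.916) and 0.786 (0.709 to 0.871), below 1 at both times. Its neighbour S100a13, which takes part in the release of FGF1 and interleukin 1 alpha without a signal peptide, had 233 and 347 control reads and 228 and 308 reads in APAP. Folds of S100a13 were 0.733 (0.608 to 0.884) and 0.776 (0.664 to 0.908). The controls of S100a13 differed, however, by 1.40 (1.19 to 1.67) between 48 h and 24 h, a step as large as that between APAP and control. Set against the 24 h control, the fold of S100a13 at 48 h became 1.09.

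S100a16, an atypical member with a single working calcium site per subunit, showed the smallest difference. It had 159 and 172 reads in the controls and 196 and 209 in APAP, with folds of 0.924 (0.745 to 1.15) at 24 h and 1.06 (0.864 to 1.31) at 48 h. How libraries are scaled bears on such small differences. Scaling by library totals instead of size factors raised the log2 fold of every gene by 0.19 at 24 h and 0.27 at 48 h, with which S100a16 at 24 h (1.05) and S100a10 at 48 h (1.03) came to lie above 1, while the other folds of the 9 members kept their side of 1. S100a1 was then at 0.935 (0.839 to 1.04) and 0.945 (0.852 to 1.05) and S100a13 at 0.834 (0.692 to 1.01) and 0.933 (0.798 to 1.09) of control, with intervals that held 1, and S100a16 at 48 h was at 1.28 (1.04 to 1.57). The 5 members past 2-fold stayed past it.

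**Figure D3:**
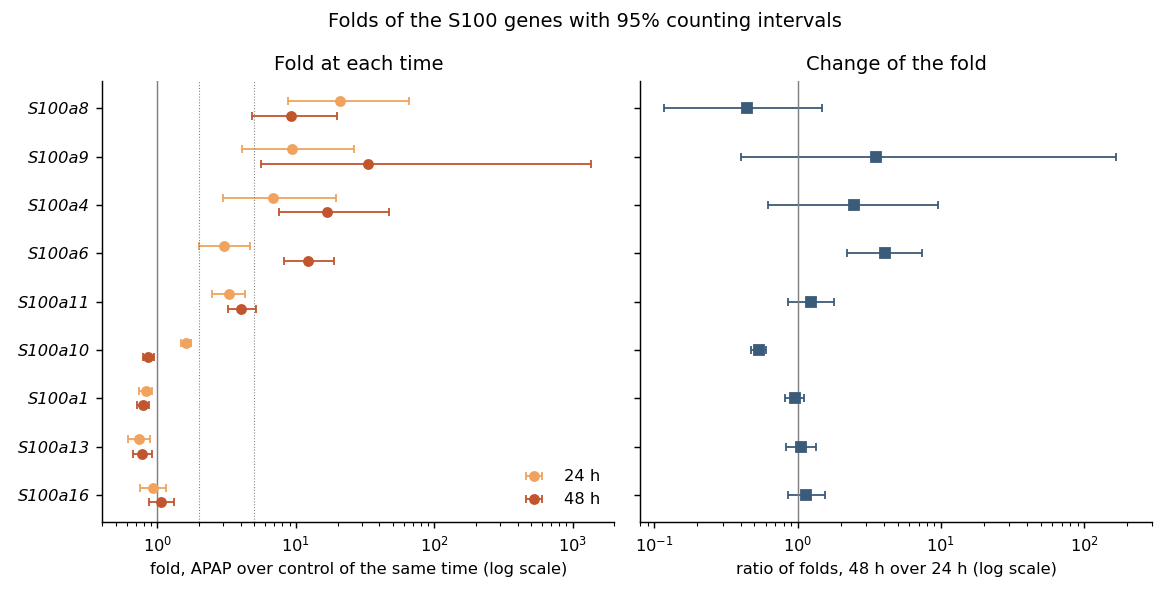
Fold of each S100 gene in APAP over control of the same time (left, log axis, light 24 h and dark 48 h, dotted lines at 2-fold and 5-fold) and the ratio of its 2 folds, 48 h over 24 h (right, log axis), each with the 95% counting interval. The ratio interval of S100a6 lies above 1 and that of S100a10 below 1, and those of the other 7 genes cross 1; the fold of S100a9 at 48 h is drawn as 33.2, against its single control read.

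Both the sum and the make-up of S100 reads differed between APAP and control. For the make-up, the sets keep the raised members apart from the others. The direction in which the shares of these sets moved was therefore fixed by the grouping. The 9 genes together had 2044 and 2316 reads in the controls, 3731 in APAP at 24 h and 3125 in APAP at 48 h, so that the summed fold was 1.37 at 24 h (1.30 to 1.44) and 1.18 at 48 h (1.12 to 1.25). S100a10, S100a1, S100a13 and S100a16 gave 94.4% of these reads in the control library at 24 h and 94.3% at 48 h, but 81.7% (80.4 to 82.9) in APAP at 24 h and 66.8% (65.2 to 68.5) at 48 h. Within this set S100a10 alone gave 43.8% in the control library and 51.5% in APAP at 24 h, and 38.2% and 27.9% at 48 h. The share of S100a4, S100a6 and S100a11 was 5.04% and 5.22% in the controls, 12.5% (11.5 to 13.6) in APAP at 24 h and 28.5% (27.0 to 30.2) at 48 h. That of S100a8 and S100a9 was 0.538% and 0.475% in the controls, 5.74% (5.01 to 6.53) at 24 h and 4.61% (3.90 to 5.40) at 48 h.

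**Figure D4:**
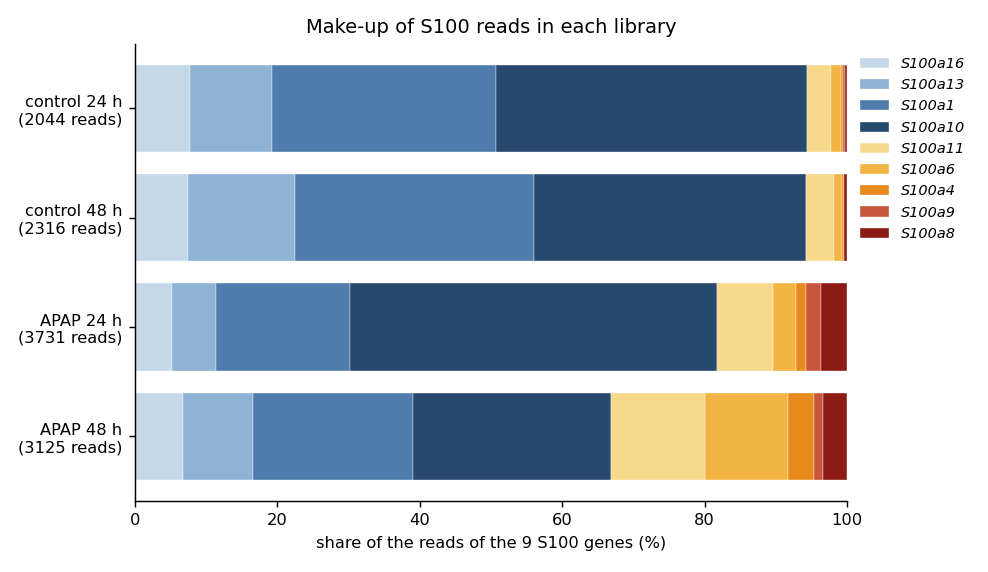
Share of each gene in the reads of the 9 S100 genes (x axis, %) in each pooled library, with the number of reads beside the library name. Blue tones (S100a16, S100a13, S100a1, S100a10) fill 94.4% and 94.3% of the control bars and 66.8% of the APAP bar at 48 h, where yellow, orange and red tones take the rest.

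MACE reads 1 fragment at the end of a transcript, so levels were compared between genes without a length scale, as RPM (reads scaled to a common library total). The order of the levels was S100a10, S100a1, S100a13, S100a16, S100a11 and S100a6 in both controls, each above the next by its counting interval, from 184 RPM for S100a10 to 6.17 RPM for S100a6 in the control library at 24 h. Below them S100a4, S100a8 and S100a9 had at most 10 reads each, and the interval separated none of their neighbours in the order, although S100a8 exceeded S100a9 in the control library at 48 h. In APAP at 48 h S100a10 (176 RPM) and S100a1 (142 RPM) still led, but S100a11 (83.4 RPM) and S100a6 (73.7 RPM), whose interval of the ratio held 1, had passed S100a13 (62.4 RPM) and S100a16 (42.3 RPM). S100a4 (23.5 RPM) and S100a8 (21.5 RPM) followed, again with an interval that held 1, and S100a9 was last with 7.70 RPM.

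Partners of the S100 proteins were taken from a list of 15 genes, of which 13 had at least 20 reads. At 24 h, 1 of the 13 was past 2-fold in APAP (6.17% of all genes) and 1 was below 0.5 of control (4.93%). Thus 1 of 13 in each direction is close to the share among all genes. At 48 h 3 were past 2-fold (5.64% of all genes) and 0 below (5.31%). Anxa2, the partner of S100a10, had 58 and 61 reads in the controls, 317 in APAP at 24 h and 546 in APAP at 48 h. Its fold of 4.09 (3.09 to 5.52) became 7.83 (6.00 to 10.4), while S100a10 was back near control at 48 h. Anxa1, a partner of S100a11, had 15 and 3 reads in the controls and 24 and 41 in APAP, a fold of 1.20 (0.604 to 2.46) at 24 h and a ratio of 11.95 (3.81 to 60.3) to the 3 control reads at 48 h. Ahnak, a scaffold bound by the complex of S100a10 and Anxa2, was at 1.13 (0.881 to 1.47) and 2.16 (1.67 to 2.83).

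Receptors were read from a list of 7 genes, of which 6 had an entry. Ager, which encodes RAGE, had 0 reads in the control library at 24 h and 1 in each of the other libraries, too few for a fold. Tlr4 had 11 and 9 reads in the controls and 23 and 14 in APAP, with folds of 1.57 (0.734 to 3.56) and 1.36 (0.548 to 3.56), and its co-receptor Ly96 was at 1.45 and 1.07 with intervals that also held 1. Cd14, which hands ligands to TLR4, was the exception. It had 5 and 16 reads in the controls, 77 in APAP at 24 h and 38 in APAP at 48 h, a fold of 11.5 (4.74 to 36.5) and 2.08 (1.13 to 3.99). Its control counts differed as well, so the lower fold at 48 h lies partly in the control library. Cd14 was the 1 gene of 5 tested at 24 h and of 4 tested at 48 h that was past 2-fold (6.17% and 5.64% of all genes). Bsg, a proposed receptor of S100a9, was at 0.741 and 0.728 of control.

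For each of the 9 members the genes with the most similar course over the 4 libraries were sought among 10066 genes, by the largest difference of the centred log2(normalized reads + 1) in any library. Lgals3 (galectin-3) was nearest to S100a6, with a largest difference of 0.16 on the log2 scale and 45, 46, 173 and 644 reads in the control libraries at 24 h and 48 h and the APAP libraries at 24 h and 48 h. Ccl2, a monocyte chemokine, was nearest to S100a4 (0.26), with 4, 3, 30 and 63 reads in the same order. Cxcl1, a neutrophil chemokine, was nearest to S100a8 (0.28), with 5, 10, 187 and 119 reads. Anxa2 was among the 3 nearest genes of both S100a4 and S100a6, and S100a6 was itself the third of S100a4. Ly6d was nearest to S100a9 (0.49), Ccl6 to S100a11 (0.23) and Igsf11 to S100a10 (0.03). Pnkd was nearest to S100a1, 2300009A05Rik to S100a13 and Rab11fip3 to S100a16, with differences of 0.02 or less. With 4 libraries, such likeness is a description only.

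Summed markers of some cell types were higher in APAP and those of others were not, and their part in the S100 values was not tested. Of the 11 neutrophil markers 9 had an entry, none reached 20 reads in a library, and their summed reads were 6 and 8 in the controls and 48 and 49 in APAP, a fold of 5.99 (2.56 to 17.1) and 5.36 (2.52 to 13.1). Ngp, Camp, Ltf and Elane had between 0 and 3 reads in each library. Retnlg had 2 and 5 reads in the controls at 24 h and 48 h and 18 and 16 in APAP. In the same order Csf3r had 2 and 0 against 9 and 11, and Mmp8 0 and 1 against 2 and 11. Cd177 had 1 and 0 against 3 and 9, and Cxcr2 1 and 1 against 9 and 0. Of the monocyte and macrophage markers, 3 of 7 tested were past 2-fold at 24 h (6.17% of all genes) and 7 of 8 at 48 h (5.64%). The summed reads of all 9 were 244 and 245 in the controls, 811 in APAP at 24 h and 1439 at 48 h. The summed fold went from 2.49 (2.16 to 2.89) to 5.14 (4.48 to 5.91), while that of S100a4, S100a6 and S100a11 went from 3.40 (2.74 to 4.26) to 6.45 (5.33 to 7.86). Taken singly, only S100a6 had a ratio of folds with an interval off 1 (4.05, 2.21 to 7.42). Those of S100a4 (2.46, 0.624 to 9.63) and S100a11 (1.24, 0.858 to 1.79) held 1. Among these markers Chil3 was at 11.6 and 42.3, Ly6c2 at 5.77 at 48 h against 5 control reads, Lyz2 at 3.43 and 5.39 and Cd68 at 1.88 and 5.11 times control.

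Summed markers of Kupffer cells, the resident macrophages, were at 1.01 and 1.41 of control, but their members went different ways: Marco was at 3.06 and 3.99 and Clec4f at 0.534 (0.441 to 0.645) and 0.985, while Vsig4 was at 0.781 and 1.57 and Cd5l at 1.12 and 1.51. Endothelial markers were at 1.11 and 1.06 in sum, with Lyve1 at 2.62 and 2.04, Pecam1 at 1.67 and 1.94, Cdh5 at 1.32 and 1.31 and Stab2 at 0.874 and 0.780. The hepatocyte sum, in which albumin gave most reads, was at 0.862 and 0.984. Within it Ass1 was at 0.479 and 0.716, Ttr at 0.561 and 1.06, Cps1 at 0.7998 and 0.971 and Apoa1 at 1.17 and 0.968. Stellate cell and fibroblast markers, another known source of S100a4 and S100a6, were at 1.25 (1.11 to 1.42) at 24 h and 2.13 (1.91 to 2.37) at 48 h. Acta2 was at 2.16 and 13.6, Col1a1 at 1.44 and 4.50 and Des at 1.63 and 2.22, but Lum was at 0.444 (0.223 to 0.854) and 0.999. Lrat was likewise at 0.557 (0.322 to 0.951) and 0.832, and Col3a1 was at 0.694 (0.435 to 1.11) and 2.07. Pdgfrb was at 1.54 and 1.89 and Dcn at 1.37 and 1.48. Cholangiocyte markers were at 2.78 (2.28 to 3.41) and 1.69 (1.40 to 2.05), carried by Sox9 (3.97 and 1.79) and Spp1 (1.90 and 2.14), since Krt7, Krt19 and Epcam had at most 15 reads in a library. These last genes did not share the rise of the sum at 48 h. Krt7 had 8 and 8 reads in the controls at 24 h and 48 h and 15 and 2 in APAP. In the same order Krt19 had 6 and 13 against 8 and 8, and Epcam 2 and 10 against 5 and 7. Their folds at 48 h, 0.328, 0.538 and 0.612, had intervals that held 1. Erythroid markers were at 0.716 and 0.551, with Hba-a1 at 0.683 and 0.543, Hbb-bs at 0.757 and 0.588 and Alas2 at 0.521 and 0.283. Mesothelial and lymphocyte markers had at most 13 summed reads each in a library.

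**Figure D5:**
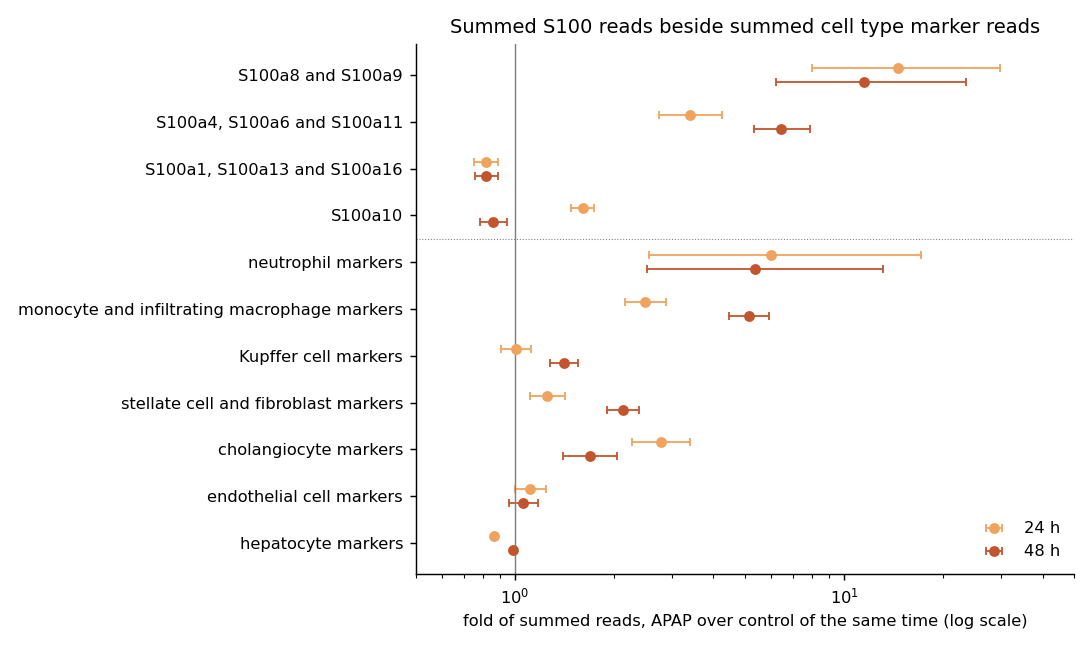
Fold of summed reads, APAP over control of the same time (log axis, light 24 h, dark 48 h, bars 95% counting intervals), for groups of S100 genes (above the dotted line) and for marker lists of cell types (below). The S100a4, S100a6 and S100a11 sum and the monocyte and macrophage sum both stand higher at 48 h than at 24 h, S100a10 and the cholangiocyte sum stand higher at 24 h, and the S100a8 and S100a9 sum and the neutrophil sum have overlapping intervals at the 2 times.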

How the data were processed

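Hepatic RNA was pooled per group and sequenced as 1 MACE library each. Per the labels and the study's methods, the authors removed duplicates by molecular identifiers, trimmed reads and tails, mapped them to mm10 and tallied them with HTSeq (versions not given in the sources used here). The deposited read counts per gene were used. The deposited normalized values were left out, as were the authors' log2 ratios, p-values and FDR. Counts were divided by median-of-ratios size factors (DESeq2 1.42.0) over 16338 genes. Neither DESeq2 nor edgeR 4.0.16 was run as a test, because each group held 1 library. Counts under 3 reads were set to 3 in folds. Intervals (95%) were Clopper-Pearson for folds and shares, Poisson for levels and conditional exact for ratios of folds, with the normal interval of the log odds ratio for the 1119 genes over 2000 reads in the background count. All-gene shares cover genes with at least 20 reads in either library. Scripts used scipy 1.17.1 and were tested on simulated data. Totals were 4859661 to 5698778 reads per library; at this depth the 6 reads of S100a4 in the control library at 24 h stand for 0.453 to 2.69 RPM. Transcript ends were compared with blastn 2.17.0.

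All 9 members are described; in the other lists up to 4 genes with at least 20 reads and the largest log2 fold are named, and 3 like-pattern genes per member (pseudocount 1) were sought. Cell type markers and receptors with few reads are named outside that rule, and 1 partner gene of the rule is not reported here. The members and lists were chosen with earlier results of these data known. Alternatives were other size factors, floors, a pseudocount, the control pool of the other time point or both, interval bounds and a read minimum.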

Additional observations from a re-analysis of the deposited data

Results flagged for a closer look

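The folds of S100a6 at the 2 time points differed by the interval of their ratio, 4.05 (2.21 to 7.42), from 3.02 at 24 h to 12.2 at 48 h. Those of S100a10 differed in the other direction, with a ratio of 0.535 (0.473 to 0.607), from 1.61 to 0.861 (1.03 with library totals). By the same interval 9.71% of 10361 genes had a higher fold at 48 h and 12.3% at 24 h, so that 1 of 9 members in each direction is close to the share among all genes. Both ratios compare 4 pools and cover counting error only, and both rest on control pools whose S100a6 and S100a10 levels differed by less than their counting error, at 0.817 (0.464 to 1.43) and 0.933 (0.849 to 1.02).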

How the results depend on the processing

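No paired analysis was possible because each group holds 1 library, and for the same reason no replicate could be left out. The counts of members past 2-fold at 24 h and 48 h, past 5-fold at 48 h, and with differing folds stayed within 1.5 times under every alternative run, as did the median log2 folds within their intervals. Some alternatives could not change these counts. All 9 members had at least 20 reads in either library at both times, so the read minimum left the counts past 2-fold and 5-fold as they were. Dropping the floor could change only S100a9 at 48 h. Requiring the lower interval bound to pass 5-fold left 1 member at 24 h (S100a8), and a floor of 10 reads left 2, with S100a4 at 4.12. With library totals the summed fold moved to 1.56 (24 h) and 1.42 (48 h), and with the control pool of the other time point to 1.28 and 1.26. The member apart between the control pools (S100a9) was lost, leaving 0, with a floor of 10 reads, with the interval bound and with a minimum of 20 reads. Of 126 recomputed member folds, 114 stayed within their interval, 10 moved out of it and 2 whose interval was off 1 changed direction, S100a10 at 48 h (1.03 with library totals) and S100a13 at 48 h (1.09 with the other control pool). The 114 include folds of members with more than 10 reads in both libraries under other floors, which could not change. S100a16 at 24 h, whose interval held 1, also changed side (1.05 with library totals). With a floor of 10 reads S100a9 at 48 h came to 3.32. All 18 recomputed ratios of folds stayed within their intervals. Few control reads limit S100a4, S100a8 and S100a9, and these pools hold no measure of the spread between mice.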

Other observations

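Other genes of the family were close to silent in these libraries. S100a3 had 0 reads in both controls and 2 and 1 in APAP at 24 h and 48 h, S100a7a had 1 read in all, and S100g had 1 read in each library except APAP at 48 h, with 5. S100pbp, whose product binds S100P, had 25 and 19 control reads and 26 and 33 in APAP, with folds of 0.779 (0.432 to 1.41) and 1.52 (0.839 to 2.83). S100a2, S100a5, S100a14, S100b and S100z were not analysed here as entries of their own.

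Between the genes that start back to back, reads of S100a1 exceeded those of S100a13 by 2.76 (2.37 to 3.22) in the control library and 3.09 (2.66 to 3.61) in APAP at 24 h, and by 2.25 (1.98 to 2.56) and 2.28 (1.99 to 2.61) at 48 h. It was lower at 48 h in both, with intervals that overlapped between the control libraries and did not between the APAP libraries. Summed with S100a16, both were at 0.817 (0.750 to 0.890) and 0.820 (0.758 to 0.887) of control with size factors. These sums depend on the scaling, since library totals raised every log2 fold by 0.19 at 24 h and 0.27 at 48 h. The intervals of S100a1 and S100a13 then held 1.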
